A study of Homo sapiens with 12 samples.

Results

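The genes described here serve protein folding, quality control and export in the endoplasmic reticulum (ER). They were chosen as a list of 38 gene symbols, and 34 had a probe set assigned to them alone on the array, out of 11963 genes measured in all. The cochaperone DNAJB11, the ubiquitin ligase SYVN1, the degradation factor SELENOS and the translocon subunit SEC61G had no such probe set and were not analysed here. Each gene is given by its probe set with the highest mean log2 signal over the 12 arrays.

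RNA came from RCC4, a long-established line from a clear cell renal carcinoma without working VHL, a background that every group carries. For 2 days the cells were under siTAZ, which silences WWTR1 (the gene of TAZ, a coactivator in Hippo signalling), or under siNT, a control siRNA without a target, and then under DMSO vehicle or 1 µM erastin for 7 hours. The 4 groups, siNT vehicle, siNT erastin, siTAZ vehicle and siTAZ erastin, held 3 arrays each, stated by the submitters to be biological triplicates of this 1 cell line. Erastin blocks the cystine/glutamate antiporter and can start ferroptosis. How many siRNA sequences were used against WWTR1 is not given in the sources used here, so an effect of TAZ loss and an effect of 1 siRNA sequence cannot be told apart.

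Proteins bound for secretion or membranes enter the ER through the SEC61 channel, fold with the help of chaperones such as BiP (HSPA5) and of disulphide isomerases, and leave in vesicles with a COPII coat. Proteins that fail to fold are recognised, pulled back through the membrane and degraded by the proteasome, a route called ER-associated degradation (ERAD). When unfolded proteins accumulate, the sensors IRE1 (ERN1), PERK (EIF2AK3) and ATF6 start the unfolded protein response. IRE1 splices the XBP1 message, PERK slows translation and favours ATF4, and the cleaved form of ATF6 and the spliced form of XBP1 raise transcription of chaperone and ERAD genes. ATF6 acts with NF-Y at the ER stress response element (ERSE), in which a CCAAT box and CCACG stand a fixed distance apart, and at the shorter ERSE-II.

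Promoters of 31 of the 34 measured members were in the RefSeq table of human promoters (GRCh38.p14), which holds 250 bases before and 50 bases after each transcription start. Searched on both strands, the ERSE, spelled CCAAT, 9 bases of any kind and CCACG, was found in 7 members, namely CALR, CANX, CRELD2, HSP90B1, HSPA5, PDIA6 and XBP1. It was found in 27 of all 35116 promoters, or 0.0769%. The ERSE-II, spelled ATTGG, 1 base of any kind and CCACG, was found in HERPUD1, HYOU1 and SDF2L1, and in 0.0541% of all promoters. The element TGACGTGG, which XBP1 can bind, was found in HYOU1, SEC23A and SEC24A, and in 0.729% of all promoters. In HYOU1 it overlaps 1 of the 2 ERSE-II matches of that promoter. The composite element of ATF4 and CHOP, TGATGNAAT, was found in 0 member promoters and in 0.991% of all, and its shorter form TGATGNAA in HERPUD1 only, and in 3.62% of all. The shorter CCACG was found in 24 of the 31 members and in 38.1% of all promoters. Counted by promoter, as the shares of all are, 42 member promoters held the ERSE in 9, the ERSE-II in 3 and CCACG in 31. A match of letters is a description and not a measured binding site. The 250 bases before the start of 7 members are shown because each holds at least 1 of these motifs and the gene fell after WWTR1 silencing, rose with erastin or, for SEC24A, had the largest change. They were chosen after the values and matches were seen, and called members without an ERSE, ERSE-II, TGACGTGG or TGATGNAA match, such as EDEM1 and EIF2AK3, are not shown. CANX, which holds an ERSE but rose after WWTR1 silencing, is not shown either. Capitals mark the fixed letters of the ERSE, the ERSE-II, TGACGTGG and TGATGNAA; sequences run 5′ to 3′ on the gene's strand.
HSPA5 (chr9:125241344-125241593, minus strand): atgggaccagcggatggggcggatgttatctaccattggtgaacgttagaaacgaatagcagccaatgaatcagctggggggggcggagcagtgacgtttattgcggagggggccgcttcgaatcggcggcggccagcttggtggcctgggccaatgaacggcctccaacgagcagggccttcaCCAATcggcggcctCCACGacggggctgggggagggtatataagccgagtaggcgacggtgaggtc
HYOU1 (chr11:119057206-119057455, minus strand): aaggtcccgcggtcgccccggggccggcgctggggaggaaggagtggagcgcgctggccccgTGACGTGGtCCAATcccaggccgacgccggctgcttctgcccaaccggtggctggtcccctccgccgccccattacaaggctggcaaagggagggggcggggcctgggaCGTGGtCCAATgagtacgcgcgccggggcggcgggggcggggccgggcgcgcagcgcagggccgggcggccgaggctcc
SDF2L1 (chr22:21642052-21642301, plus strand): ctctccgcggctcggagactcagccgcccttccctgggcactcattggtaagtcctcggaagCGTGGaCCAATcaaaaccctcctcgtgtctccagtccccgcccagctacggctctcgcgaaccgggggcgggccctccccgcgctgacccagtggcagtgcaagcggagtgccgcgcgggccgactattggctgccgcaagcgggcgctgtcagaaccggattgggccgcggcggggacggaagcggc
CRELD2 (chr22:49918384-49918633, plus strand): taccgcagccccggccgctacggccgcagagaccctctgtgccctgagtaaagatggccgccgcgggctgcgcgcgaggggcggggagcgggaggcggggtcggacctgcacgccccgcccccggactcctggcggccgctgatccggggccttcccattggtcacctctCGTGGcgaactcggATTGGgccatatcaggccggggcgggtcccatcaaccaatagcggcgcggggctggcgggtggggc
XBP1 (chr22:28800570-28800819, minus strand): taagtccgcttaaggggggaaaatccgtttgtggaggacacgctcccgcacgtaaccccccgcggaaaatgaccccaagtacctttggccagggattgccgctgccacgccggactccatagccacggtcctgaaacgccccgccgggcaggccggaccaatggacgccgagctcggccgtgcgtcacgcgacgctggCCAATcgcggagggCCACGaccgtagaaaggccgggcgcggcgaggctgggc
HERPUD1 (chr16:56931892-56932141, plus strand): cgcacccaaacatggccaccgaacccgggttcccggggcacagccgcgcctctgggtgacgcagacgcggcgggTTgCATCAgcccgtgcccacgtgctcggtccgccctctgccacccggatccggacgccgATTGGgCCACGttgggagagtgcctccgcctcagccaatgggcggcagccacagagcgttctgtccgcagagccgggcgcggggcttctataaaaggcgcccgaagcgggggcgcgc
SEC24A (chr5:134648535-134648784, plus strand): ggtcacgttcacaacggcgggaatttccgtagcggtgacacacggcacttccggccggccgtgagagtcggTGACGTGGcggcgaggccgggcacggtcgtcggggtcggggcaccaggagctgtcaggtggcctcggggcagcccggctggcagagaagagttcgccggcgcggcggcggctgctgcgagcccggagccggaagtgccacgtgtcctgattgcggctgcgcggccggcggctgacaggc
The first ERSE-II match of HYOU1 begins at −185 from its start and the other at −79. The ERSE begins at −66 in HSPA5, −52 in XBP1 and −80 in CRELD2, and the ERSE-II at −188 in SDF2L1 and −117 in HERPUD1. XBP1 has another promoter in the table, not printed, with CCACG but no ERSE or ERSE-II match; a gene was counted as a carrier where any of its promoters matched. SEC24A holds no ERSE or ERSE-II match in this window.

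The deposited log2 signals had array medians of 6.48 to 6.54. WWTR1 was low on every siTAZ array, with a log2 signal of 9.25 ± 0.14 (SD, n = 6) against 12.28 ± 0.06 (SD, n = 6) on siNT arrays. That left 12.2% of the control signal (exact two-sided permutation test, p = 0.0022, the smallest that 6 against 6 arrays can give). Of the 7 markers listed for renal carcinoma, PAX8 (log2 signal 10.61) and CDH6 (12.22) were bright. In vehicle 4 of the 7 were called for siTAZ, beside 28.6% of all genes. They moved both ways: KRT18 went from 10.49 in siNT to 9.43 in siTAZ vehicle, with VIM and KRT8 slightly lower. CDH6 went from 11.86 to 12.63, with PAX2, CDH2 and PAX8 also higher. Markers of leukocytes (6 measured), endothelium (5), erythroid cells (2) and fibroblasts (4) had list medians of 4.20, 4.34, 5.70 and 3.81, with 0 of the 17 called for siTAZ in vehicle, and the mean level of each list moved by at most 0.1 between groups. ERN1 was the only member whose 4 group means all lay under the highest of these medians. The 3′ minus 5′ signal of the actin control, a sign of RNA quality, was 2.68 ± 0.28 in siNT vehicle, 2.65 ± 0.04 in siTAZ vehicle, 2.26 ± 0.69 in siNT erastin and 3.25 ± 0.33 in siTAZ erastin (SD, n = 3). That of GAPDH lay between 0.15 and 0.20 in all groups. Precision is limited by having 3 arrays in a group.

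Silencing of WWTR1 in vehicle was accompanied by lower signals of a subset of ER chaperone genes and by higher signals of the sensors EIF2AK3 and ATF6, the degradation genes EDEM1 and DERL2, and part of the COPII coat. In the text, changes are differences of log2 signal ± their standard error from limma, fitted over all 12 arrays (n = 3 per group), and a gene rose or fell where its limma p, adjusted by Benjamini-Hochberg over all genes, was under 0.05. Of the 34 members 8 rose and 4 fell in vehicle. Over all genes 14.7% rose and 13.9% fell, so 35.3% of members were called against 28.6% of genes. Every member but ERN1 was brighter than the median gene, and bright genes were called more often. In a refit without the 50% of genes with the lowest mean, 3270 of 5982 were called, of which 1622 rose and 1648 fell. DNAJC3, P4HB, PDIA3 and SEC61A1 then joined the members called. The all-gene shares given here are therefore not those of genes of like signal. The median change of the members was 0.07 and that of all genes −0.01. All siTAZ arrays were above all siNT arrays for 17 members and below them for 7, beside 21.4% and 22.4% of all genes. Without siTAZ vehicle replicate 3 the count of rises was 5. In bulk RNA, a lower level per cell and a smaller share of cells with the transcript cannot be told apart.

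**Figure D1:**
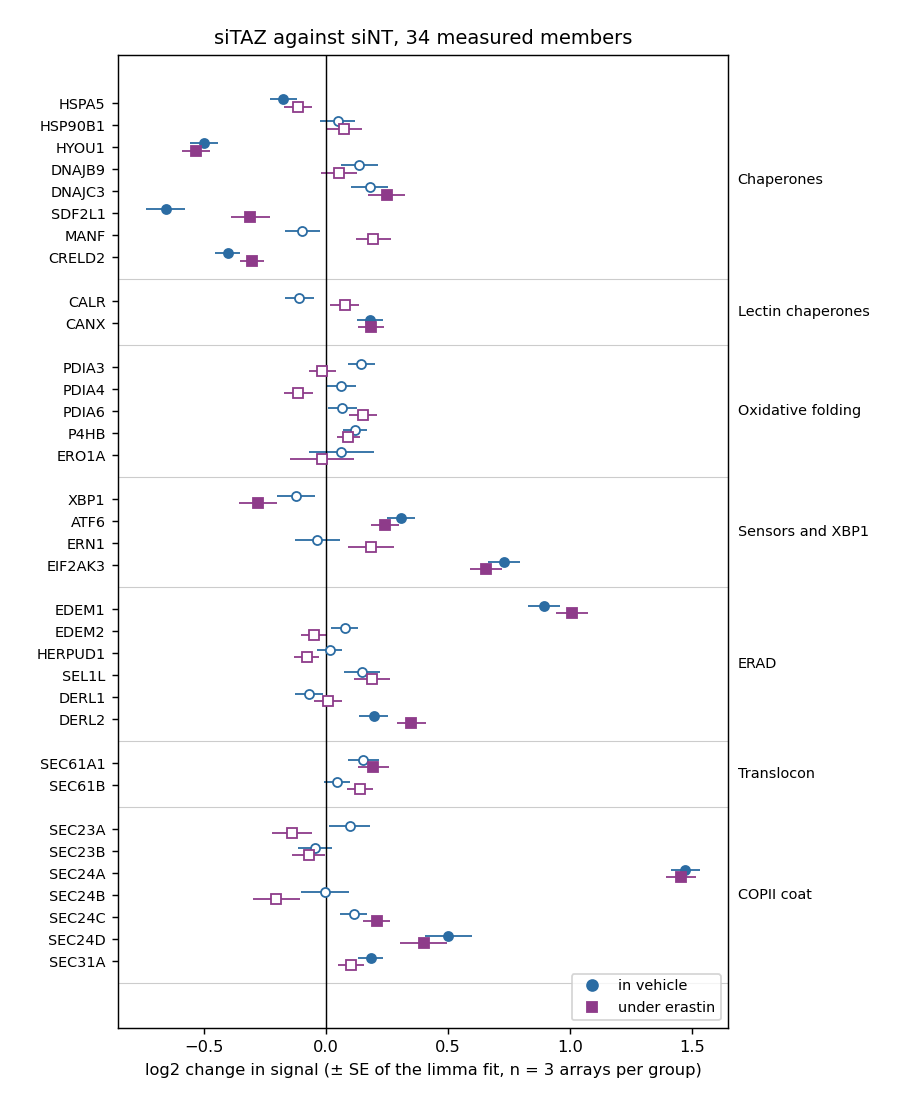
Log2 change of the 34 measured members for siTAZ against siNT in vehicle (blue circles) and under erastin (purple squares), ± standard error from limma (n = 3 per group); filled symbols passed an adjusted p of 0.05 and open ones did not. SEC24A (1.47 and 1.46), EDEM1 and EIF2AK3 lie farthest to the right and SDF2L1, HYOU1 and CRELD2 farthest to the left.

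Among the luminal chaperones and their partners, 4 of 8 fell and 0 rose in vehicle in limma, beside 13.9% and 14.7% of all genes. Of the 5982 brighter genes of the refit, 1648 fell and 1622 rose. At an unadjusted p under 0.05 there were 4 lower and 1 higher. Such unadjusted counts have no share of all genes beside them here, except for the interaction, and are descriptions only. SDF2L1, a partner of ER DnaJ proteins that keeps clients soluble, had log2 signals of 9.44, 9.37 and 9.69 in siNT vehicle and 8.76, 8.89 and 8.86 in siTAZ vehicle. All siTAZ arrays lay below all siNT arrays, and the fall was −0.66 ± 0.08, or 1.58-fold (adjusted p = 5.92e-05). HYOU1, the large Hsp70-related chaperone that also exchanges nucleotide on BiP, read 9.87, 9.83 and 9.85 in siNT vehicle and 9.30, 9.42 and 9.34 in siTAZ vehicle. Its values within a group spanned far less than the gap between groups, and it fell by −0.50 ± 0.06 (1.41-fold, adjusted p = 3.8e-05). CRELD2, an ER protein with isomerase-like activity that is secreted under stress, read 9.99, 9.97 and 9.99 and then 9.56, 9.64 and 9.53, a fall of −0.40 ± 0.05 (adjusted p = 7.69e-05).

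HSPA5, which encodes BiP, the main Hsp70 of the ER, read 12.39, 12.31 and 12.34 in siNT vehicle and 12.24, 12.12 and 12.15 in siTAZ vehicle. The groups did not overlap, but the fall was only −0.18 ± 0.06 (1.13-fold, adjusted p = 0.0349), and the call was lost without any 1 of the 3 siNT vehicle arrays or without siTAZ vehicle replicate 2 or 3, where the change ran from −0.19 to −0.15, and after a second quantile normalisation (−0.14). HSP90B1, the ER Hsp90 known as GRP94, was 0.05 ± 0.07 with a 95% interval of −0.11 to 0.21 and was not called. The HSP90B1 probe sets used here carry the _x_at suffix, which Affymetrix gives to probe sets that may also detect other transcripts. Other HSP90B1 probe sets, which the annotation assigns to more than 1 gene, were left out. MANF, a secreted neurotrophic factor that binds BiP, was −0.10 ± 0.07. The BiP cochaperones DNAJB9 (0.14 ± 0.075) and DNAJC3 (0.18 ± 0.075) were not called either.

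Under erastin, 3 of these 8 chaperone genes fell after WWTR1 silencing and 1 rose. Over all genes, 12.6% fell and 15.6% rose in this comparison, and of the 34 members 4 fell and 10 rose. In the refit without the 50% of genes with the lowest mean, 3229 of 5982 were called, of which 1664 rose and 1565 fell. MANF, PDIA6, SEC61B and SEL1L then joined the members called. For PDIA6 the probe set used gave 0.15, and the others 0.01, 0.02 and −0.17. For SEL1L the one used gave 0.19, and the dimmer ones −0.02, 0.11 and −0.23. The siTAZ arrays lay above all siNT arrays for 16 members and below for 8, beside 21.1% and 17.7% of all genes. HYOU1 read 9.77, 9.85 and 9.96 in siNT erastin and 9.35, 9.34 and 9.30 in siTAZ erastin, a fall of −0.53 ± 0.06 (adjusted p = 2.51e-05). CRELD2 fell by −0.30 ± 0.05, and SDF2L1 by −0.31 ± 0.08, from 9.24, 9.26 and 9.24 to 8.87, 8.89 and 9.04. None of the 3 overlapped between groups. DNAJC3 rose by 0.25 ± 0.075, a rise that was not called once siTAZ erastin replicate 1 (0.24) or 3 (0.23), or replicate 2 of siNT erastin (0.20), was left out, and HSPA5, at −0.12 ± 0.06, was not called.

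The RNA quality sign given above differed most between the 2 erastin groups. With the actin signal as a covariate, 4 members rose and 2 fell for siTAZ under erastin, against 10 and 4 without it. HYOU1 and CRELD2 were still called there, at −0.44 and −0.27, as were EIF2AK3, EDEM1, DERL2 and SEC24A. With the covariate SDF2L1 (−0.36), DNAJC3 (0.26), CANX (0.21), ATF6 (0.24) and SEC24D (0.41) had changes no smaller than without it but no longer passed, with adjusted p of 0.0505 to 0.125. XBP1 (−0.10), SEC61A1 (0.09) and SEC24C (0.16) had smaller changes and did not pass. The part of RNA quality in these results was not tested beyond this fit.

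The lectin chaperones hold glycoproteins in the folding cycle. Calnexin, CANX, rose by 0.18 ± 0.05 in vehicle (adjusted p = 0.023) and by 0.18 ± 0.05 under erastin (adjusted p = 0.0204). Dimmer CANX probe sets gave 0.17 and 0.04 in vehicle and −0.05 and −0.10 under erastin, and with the mean of all probe sets the gene was not called in either (0.13 and 0.01). In vehicle CANX was also not called with siNT vehicle replicate 3 (0.14) or siTAZ vehicle replicate 2 or 3 (0.17 each) left out, and under erastin with siNT erastin replicate 2 (0.18), siTAZ erastin replicate 1 (0.16) or 2 (0.18) left out. Calreticulin, CALR, was −0.11 ± 0.06 in vehicle and 0.08 ± 0.06 under erastin and was not called. Its dimmer probe sets gave −0.07 and −0.13 in vehicle, and under erastin 0.23 (adjusted p = 0.196) and −0.28 (adjusted p = 0.0139, both over all probe sets), so the probe sets of CALR disagree in direction there. The disulphide isomerase genes and the oxidase gene that recharges them gave 0 calls among 5 in either medium in limma. Of all genes 28.6% were called in vehicle and 28.2% under erastin. At an unadjusted p under 0.05 there were 2 higher in vehicle and 1 under erastin. In vehicle PDIA3 was 0.14 ± 0.06, P4HB 0.12 ± 0.05, PDIA6 0.07 ± 0.06, PDIA4 0.06 ± 0.06 and ERO1A 0.06 ± 0.13. Without the 50% of genes with the lowest mean, PDIA3 and P4HB were called higher in vehicle. The dimmer P4HB probe set gave 0.27 in vehicle (adjusted p = 0.0314 over all probe sets) and −0.11 under erastin.

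Of the sensor genes and XBP1, 2 of 4 rose in vehicle, beside 14.7% of all genes and 1622 of the 5982 brighter genes of the refit. EIF2AK3, the gene for PERK, read 8.60, 8.58 and 8.46 in siNT vehicle and 9.31, 9.23 and 9.28 in siTAZ vehicle. It rose by 0.73 ± 0.065, or 1.66-fold (adjusted p = 5.07e-06), with a gap between the groups several times the spread within them. Under erastin it read 8.39, 8.38 and 8.58 in siNT cells and 9.15, 9.10 and 9.07 in siTAZ cells, a rise of 0.66 ± 0.065 (adjusted p = 1.22e-05). ATF6, whose cleaved form is a transcription factor, rose by 0.31 ± 0.06 in vehicle, from 7.90, 7.91 and 8.02 to 8.27, 8.19 and 8.30. Under erastin the rise was 0.24 ± 0.06 (adjusted p = 0.00666). The other ATF6 probe set gave 0.29 in vehicle (adjusted p = 0.00522 over all probe sets) and 0.18 under erastin, where it did not pass (adjusted p = 0.0593). ERN1, the gene for IRE1, was dim and not called, at −0.04 ± 0.09 in vehicle and 0.18 ± 0.09 under erastin.

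XBP1 encodes the transcription factor made active by IRE1. Its probe set does not tell the spliced from the unspliced message. It read 9.27, 9.19 and 9.09 in siNT vehicle and 9.13, 9.01 and 9.03 in siTAZ vehicle, which overlap, and the change of −0.12 ± 0.08 was not called. Under erastin it read 9.70, 9.54 and 9.83 in siNT cells and 9.48, 9.32 and 9.42 in siTAZ cells, which do not overlap, and it fell by −0.28 ± 0.08 (adjusted p = 0.0179). The gene was no longer called with siNT erastin replicate 3 (−0.21) or siTAZ erastin replicate 2 (−0.24) left out, with only these groups in the fit (−0.28), or with the actin covariate (−0.10).

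**Figure D2:**
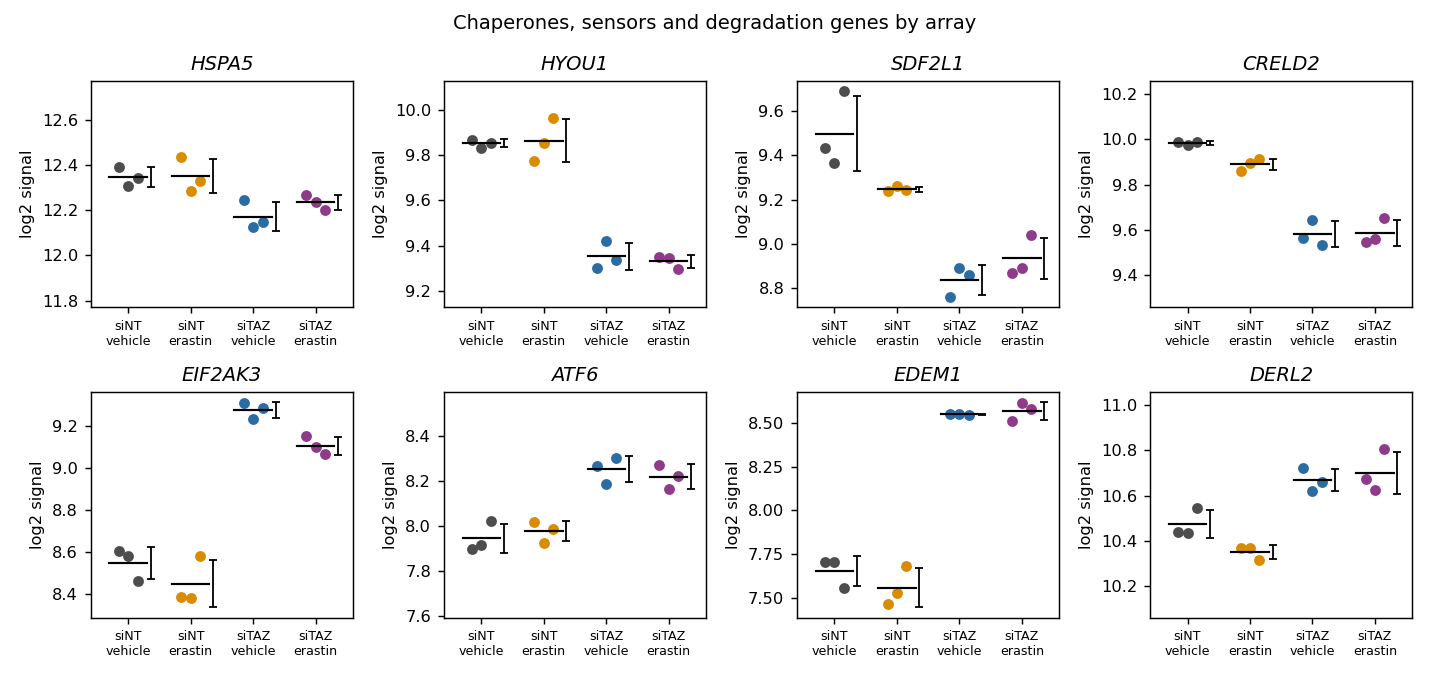
Log2 signal of 8 members on each of the 12 arrays, with a line at the mean of each group and a bar of ± 1 SD (n = 3) beside it. HYOU1, SDF2L1 and CRELD2 are lower and EIF2AK3, ATF6, EDEM1 and DERL2 are higher on every siTAZ array than on any siNT array of the same medium.

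Degradation genes rose in part, with 2 of 6 called in vehicle and the same count under erastin, beside 14.7% and 15.6% of all genes that rose. Of the 5982 brighter genes of the refit, 1622 rose in vehicle and 1664 under erastin. An excess of rises over genes of like signal was therefore not shown. EDEM1, a lectin that pulls mannose-trimmed glycoproteins out of the folding cycle, read 7.71, 7.71 and 7.56 in siNT vehicle and 8.55, 8.55 and 8.54 in siTAZ vehicle. It rose by 0.89 ± 0.065, or 1.86-fold (adjusted p = 1.02e-06), and under erastin by 1.01 ± 0.065, or 2.01-fold (adjusted p = 4.52e-07). DERL2, a channel-forming membrane protein of the retrotranslocation complex, rose by 0.19 ± 0.06 in vehicle (adjusted p = 0.0281) and by 0.35 ± 0.06 under erastin (adjusted p = 0.000816). In vehicle the gene was no longer called with siNT vehicle replicate 1 or 2, or siTAZ vehicle replicate 1 or 3, left out, at changes of 0.17 to 0.20. EDEM2, which trims mannose ahead of EDEM1, was 0.08 ± 0.06 and SEL1L, the adaptor of the SYVN1 ligase, 0.15 ± 0.07 in vehicle, and neither was called. DERL1 was −0.07 ± 0.06 on its brightest probe set, while a dimmer one gave 0.41 in vehicle (adjusted p = 0.00883 over all probe sets) and 0.03 under erastin. HERPUD1, which organises the ligase complex, was 0.01 ± 0.05 in vehicle and −0.08 ± 0.05 under erastin.

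Both measured subunits of the SEC61 channel were within 0.2 of the control. SEC61A1, the pore, was 0.15 ± 0.06 in vehicle and rose by 0.19 ± 0.06 under erastin (adjusted p = 0.04), a call that was lost in 14 of 22 alternatives. SEC61B was 0.04 ± 0.05 and 0.14 ± 0.05 and was not called.

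The COPII coat gave the largest change among all members. SEC23 and SEC24 form the inner coat, in which SEC24 picks the cargo, and SEC31A is part of the outer cage. SEC24A and SEC24B are close paralogues, as are SEC24C and SEC24D. SEC24A read 9.05, 8.999 and 8.984 in siNT vehicle and 10.53, 10.41 and 10.51 in siTAZ vehicle. It rose by 1.47 ± 0.06, or 2.78-fold (adjusted p = 2.14e-08). Under erastin it read 8.84, 8.83 and 8.99 in siNT cells and 10.30, 10.41 and 10.31 in siTAZ cells, a rise of 1.46 ± 0.06, or 2.74-fold. A dimmer SEC24A probe set rose less, by 0.43 in vehicle (adjusted p = 0.00695 over all probe sets) and 0.56 under erastin, so the direction was shared and the size depends on the probe set.

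SEC24D rose by 0.50 ± 0.10 in vehicle, from 7.71, 7.57 and 7.51 to 8.22, 7.98 and 8.09 (adjusted p = 0.0017), and by 0.40 ± 0.10 under erastin (adjusted p = 0.00749). Its other 2 probe sets were dim, at 3.21 and 3.05, and with the mean of all probe sets the vehicle change was 0.17 and not called. Under erastin those dim probe sets gave 0.36 and 0.23. SEC24B, the close paralogue of SEC24A, was −0.004 ± 0.10 in vehicle, with a 95% interval of −0.22 to 0.21, and −0.20 ± 0.10 under erastin. SEC24C was 0.11 ± 0.055 in vehicle and rose by 0.21 ± 0.055 under erastin (adjusted p = 0.0138), and was not called there with siTAZ erastin replicate 2 left out (0.19) or with only these groups in the fit (0.21). SEC31A rose by 0.18 ± 0.05 in vehicle (adjusted p = 0.0215), and was 0.10 ± 0.05 and not called under erastin (adjusted p = 0.196). Its dimmer probe set gave 0.19 in vehicle and 0.28 under erastin (adjusted p = 0.00492 over all probe sets). On the brighter probe set it was not called in vehicle with siNT vehicle replicate 3 (0.15) or siTAZ vehicle replicate 2 (0.18) or 3 (0.16) left out. SEC23A (0.10 ± 0.08) and SEC23B (−0.05 ± 0.07) were not called in vehicle, nor under erastin (−0.14 ± 0.08 and −0.07 ± 0.07). Under erastin the dimmer SEC23B probe sets passed in opposite directions, at −0.21 (adjusted p = 0.0215) and 0.23 (adjusted p = 0.0199, both over all probe sets), and a dimmer one of SEC23A gave −0.57 (adjusted p = 0.0639). Of the 7 coat genes 3 rose and 0 fell in each medium in limma, with 3 higher and 0 lower at an unadjusted p under 0.05 as well. Of all genes, dim ones included, 14.7% rose and 13.9% fell in vehicle, and 15.6% rose and 12.6% fell under erastin. Of the 5982 brighter genes of the refit, 1622 rose and 1648 fell in vehicle, and 1664 rose and 1565 fell under erastin.

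**Figure D3:**
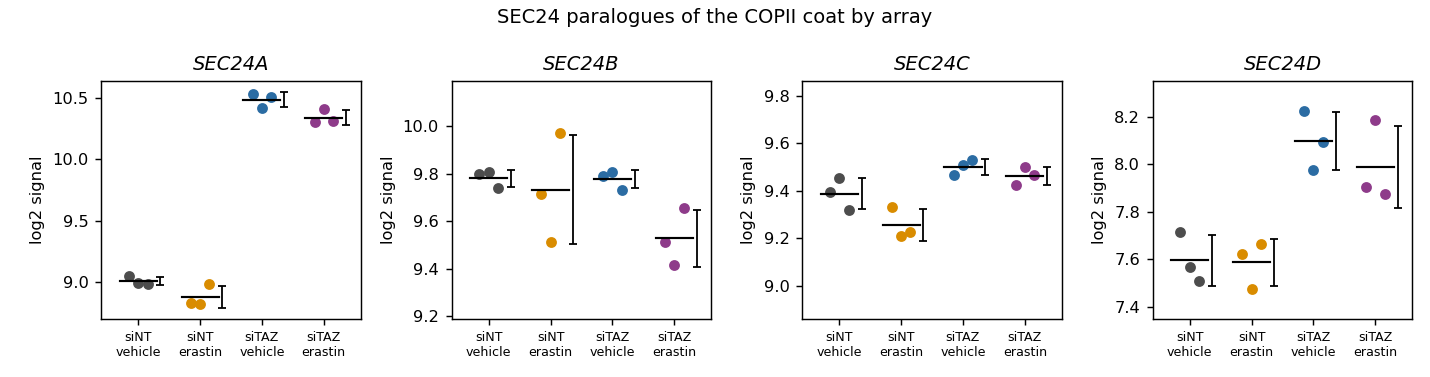
Log2 signal of the 4 SEC24 paralogues on each of the 12 arrays, with a line at each group mean and a bar of ± 1 SD (n = 3). The siTAZ arrays of SEC24A lie at 10.30 to 10.53 and the siNT arrays at 8.83 to 9.05, while the arrays of SEC24B overlap between siNT and siTAZ in both media.

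Seen by role, the medians of the change in vehicle were −0.14 for the 8 chaperones, 0.07 for the 5 oxidative folding genes, 0.14 for the 4 sensor genes, 0.11 for the 6 degradation genes and 0.11 for the 7 coat genes, beside −0.01 for all genes. Under erastin they were −0.03, −0.02, 0.21, 0.10 and 0.10, beside 0.01. The vehicle and erastin comparisons share no arrays. Of the members called, 7 rose in both and 3 fell in both, and 0 went opposite ways. The 7 were SEC24A, EDEM1, EIF2AK3, SEC24D, ATF6, DERL2 and CANX, and the 3 were HYOU1, SDF2L1 and CRELD2. The same count over all genes was not made, so this agreement is not shown to be particular to the members.

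All members that fell and had a promoter in the table carried an ERSE or ERSE-II match. Of the 10 members with such a match 4 fell and 1 rose in vehicle, with a median of −0.12, and of the 21 without one 0 fell and 6 rose, with a median of 0.12. Under erastin 4 of the 10 fell and 1 rose, with a median of −0.10, and of the 21 others 0 fell and 8 rose, with a median of 0.18. The match did not go with a fall in every case, since CANX rose and HSP90B1, CALR, PDIA6 and HERPUD1 were not called in either medium. Over all genes, 13.9% fell and 14.7% rose in vehicle, and 12.6% fell and 15.6% rose under erastin. The carriers include the chaperones HSPA5, HYOU1, SDF2L1, CRELD2 and HSP90B1 and no COPII gene, so match and role cannot be told apart. These counts describe the members, with no test, and the activity of ATF6 or XBP1 was not measured.

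A wider list of 117 other ER and secretory genes, of which 98 were measured, gave calls in both directions. In vehicle 25 rose and 14 fell, or 39.8% called beside 28.6% of all genes, and under erastin 27 rose and 17 fell, beside 28.2% of all genes. Many of these genes are bright too, so the all-gene shares are not those of genes of like signal. Without the 50% of genes with the lowest mean, 3270 of 5982 genes were called in vehicle and 3229 under erastin. Among degradation genes UBE2G2, a ubiquitin-conjugating enzyme of ERAD, rose by 1.06 ± 0.06 in vehicle and 1.26 ± 0.06 under erastin, whereas UBE2J1, another such enzyme, fell by −0.44 ± 0.07 and −0.56 ± 0.07. In translocation SEC61A2, a second pore gene, rose by 0.68 ± 0.06 and SRPRB, a subunit of the signal recognition particle receptor, by 0.51 ± 0.05 in vehicle, while SSR3, a subunit of the translocon-associated complex, fell by −0.76 ± 0.08.

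Other parts of the wider list were mixed too. The stress phosphatase regulator PPP1R15A, which reverses the block of translation set by PERK, fell by −0.73 ± 0.07 and DDIT3, the gene for CHOP, by −0.40 ± 0.09 in vehicle. CREB3L2, an ER-bound transcription factor related to ATF6, rose by 0.59 ± 0.06. Of 15 genes of the COPI coat and retrieval 6 rose and 1 fell in vehicle, among them the coatomer subunit gene ARCN1 at 0.46 ± 0.055, the cargo receptor gene TMED5 at 0.41 ± 0.05 and KDELR3, a receptor that returns escaped ER proteins, at 0.40 ± 0.05. Of 14 other folding genes 3 rose and 2 fell, with the thiol-retention chaperone gene ERP44 at −0.47 ± 0.08 and the prolyl isomerase gene FKBP14 at −0.39 ± 0.05. Beside these counts, 14.7% of all genes rose and 13.9% fell in vehicle.

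Erastin itself changed few members. In siNT cells 2 of 34 rose and 0 fell in limma, beside 0.527% and 0.276% of all genes (0.802% in either direction), and at an unadjusted p under 0.05 there were 2 higher and 3 lower. HERPUD1 read 10.59, 10.59 and 10.58 in siNT vehicle and 11.06, 11.05 and 11.21 in siNT erastin. It rose by 0.52 ± 0.05, or 1.43-fold (adjusted p = 0.000461). XBP1 read 9.27, 9.19 and 9.09 in vehicle and 9.70, 9.54 and 9.83 with erastin, and rose by 0.51 ± 0.08, or 1.42-fold (adjusted p = 0.0118). XBP1 was no longer called with siNT vehicle replicate 2 (0.51), siNT vehicle replicate 3 (0.46) or siNT erastin replicate 1 (0.50) left out, nor with only these groups in the fit (0.51).

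In siTAZ cells HERPUD1 was the only member called for erastin, beside 0.460% of all genes that rose and 0.100% that fell (0.560% together). Groups did not overlap for 5 members upward and 4 downward, beside 10.9% and 9.81% of all genes. At an unadjusted p under 0.05 there were 2 higher and 4 lower members. HERPUD1 read 10.60, 10.60 and 10.61 in siTAZ vehicle and 11.01, 11.03 and 11.04 in siTAZ erastin, a rise of 0.42 ± 0.05, or 1.34-fold (adjusted p = 0.00211). XBP1 was 0.35 ± 0.08 with groups that did not overlap (adjusted p = 0.0971). It was called in 6 of the alternatives, one of them without siNT erastin replicate 3. The 2 erastin comparisons share no arrays.

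Of the 8 chaperone genes 0 were called for erastin under either siRNA in limma. Of all genes only 0.802% were called in siNT and 0.560% in siTAZ cells, so 0 of 8 does not set the chaperones apart. At an unadjusted p under 0.05 there were 0 higher and 2 lower in siNT cells and 0 of either in siTAZ cells. In siNT cells HSPA5 was 0.003 ± 0.056 with a 95% interval of −0.12 to 0.13, HYOU1 0.01 ± 0.06 and HSP90B1 −0.055 ± 0.073. SDF2L1 was −0.25 ± 0.08 (adjusted p = 0.259) and MANF −0.23 ± 0.07 (adjusted p = 0.236), both with all erastin arrays under all vehicle arrays. The groups did not overlap for 3 members upward and 4 downward in siNT cells, beside 5.92% and 8.52% of all genes. In the wider list ATF4 and DDIT3 were the only rises with erastin under either siRNA, DDIT3 by 0.60 ± 0.09 in siNT and 0.64 ± 0.09 in siTAZ cells, and ATF4 by 0.27 ± 0.05 and 0.42 ± 0.05.

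**Figure D4:**
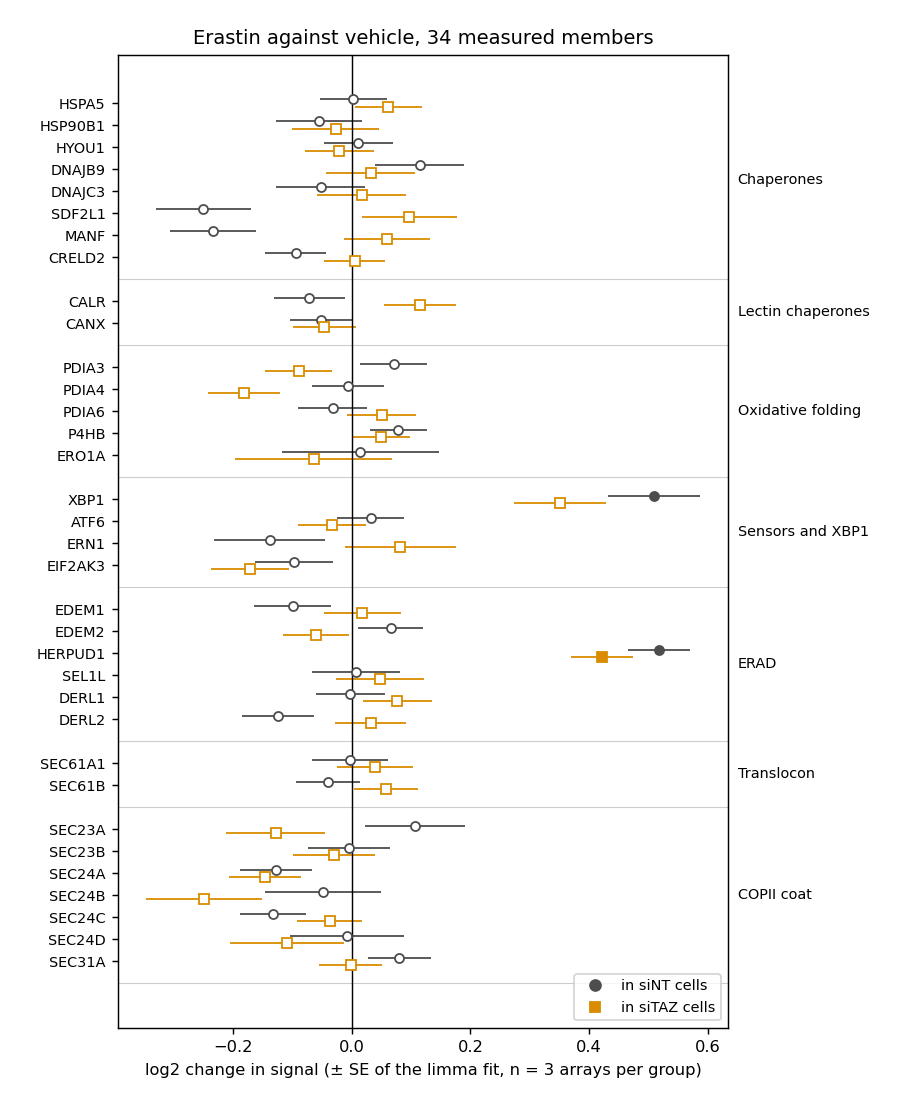
Log2 change of the 34 measured members for erastin against vehicle in siNT cells (grey circles) and in siTAZ cells (orange squares), ± standard error from limma (n = 3 per group); filled symbols passed an adjusted p of 0.05. HERPUD1 (0.52 and 0.42) and XBP1 (0.51 and 0.35) stand to the right, and the other 32 members lie between −0.25 and 0.12.

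**Figure D5:**
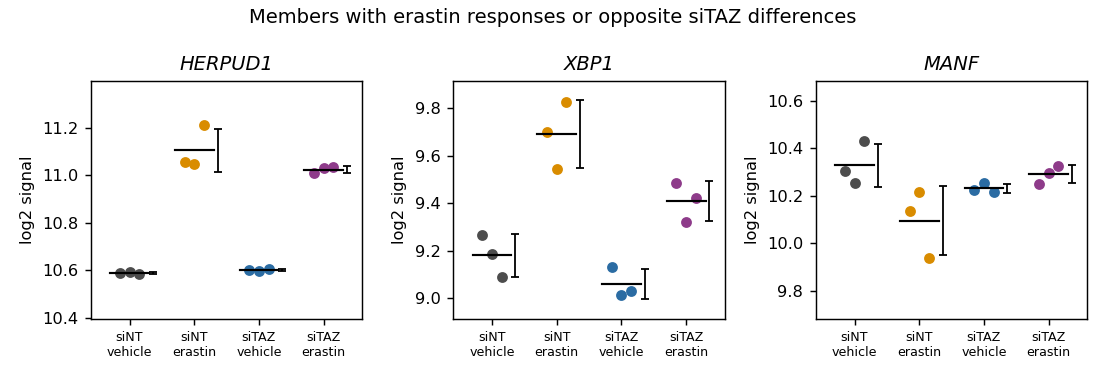
Log2 signal of HERPUD1, XBP1 and MANF on each of the 12 arrays, with a line at each group mean and a bar of ± 1 SD (n = 3). HERPUD1 and XBP1 are higher on every erastin array than on any vehicle array with the same siRNA, and the siNT erastin arrays of MANF, at 9.94 to 10.21, have the lowest mean of its 4 groups.

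The response to erastin was not shown to differ between siNT and siTAZ cells for any member. The test of that difference, the interaction term in limma, called 0 of 34 members and 0% of all genes. At an unadjusted p under 0.05 it gave 3 members and 764 of 11963 genes, or 6.39%. The 3, all with a difference above 0, were SDF2L1 at 0.35 ± 0.11, MANF at 0.29 ± 0.10 and CALR at 0.19 ± 0.08, with adjusted p of 0.77 each. The dimmer CALR probe sets gave 0.30 and −0.15. For HERPUD1 the difference was −0.10 ± 0.07 with a 95% interval of −0.26 to 0.07, and for XBP1 −0.16 ± 0.11 with an interval of −0.40 to 0.08. For SEC24A it was −0.02 ± 0.09, for EDEM1 0.12 ± 0.09 and for EIF2AK3 −0.07 ± 0.09.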

How the data were processed

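The deposited values are log2 signals per probe set; the submitters' processing notes name RMA and Affymetrix Expression Console, without versions. The series text also describes a scaling to the siNT mean; the deposited signals, with medians of 6.48 to 6.54 on all 12 arrays, do not show it and were taken as unscaled. RMA equalises the signal distributions of arrays, so a change shared by most genes would not be seen. From 22277 probe sets, 19064 covering 11963 genes were kept, after removal of 62 controls, 1043 assigned to more than 1 gene and 2108 with no gene in the annotation. The probe set with the highest mean stood for a gene, and symbols were updated through Entrez identifiers. All 12 arrays entered 1 fit with a mean per group in limma 3.58.1 (R 4.3.3), with 8 residual and 3.9 prior degrees of freedom, adjusted over all genes of each of the 5 comparisons. The fit was tested on simulated data. Groups came from the sample titles. The members and lists were chosen with earlier results of these data known. All 34 members could be named, and of the wider list up to 3 called genes per role and comparison. Same-numbered arrays of different groups deviated together (r over 0.1) in 4 of 18 pairs, with r from −0.42 to 0.36. The labels state no pairing and none was used in the main fit, but 3 arrays a group cannot exclude one. No genome build is given for the array, so gene positions are not printed; promoters are RefSeq's on GRCh38.p14. Alternatives covered normalisation, low-signal filters, probe sets, the variance model, array weights, the arrays fitted, the replicate number and the actin signal.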

Additional observations from a re-analysis of the deposited data

Results flagged for a closer look

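Arrays of MANF went opposite ways after WWTR1 silencing in the 2 media: all siTAZ arrays were lower in vehicle (−0.10) and all were higher under erastin (0.19). The difference between them was 0.29 ± 0.10 in the limma interaction test (unadjusted p = 0.014, adjusted p = 0.77) and did not pass. HERPUD1 also did so, at 0.01 in vehicle and −0.08 under erastin, with a difference of −0.10 ± 0.07 (adjusted p = 0.82) that did not pass either. The SDs of HERPUD1 in the vehicle groups were 0.004 and 0.004, so groups separate there at a difference of 0.01.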

How the results depend on the processing

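Of 29 called changes of single members, 15 kept their call and direction under every alternative run, and over all 638 alternative values 58 lost the call and 0 reversed. With the actin signal as a covariate, 4 members rose and 2 fell for siTAZ under erastin, against 10 and 4. Members that rose with erastin in siNT cells numbered 1 when only these groups were fitted, against 2 in the main fit. In siTAZ cells they numbered 2, against 1 in the main fit, after a second quantile normalisation or without the 50% dimmest genes. The siTAZ count was also 2 with trend and robust variances, with array weights or with the actin covariate. Leaving out 1 array gave 5 to 9 rises and 3 to 4 falls for siTAZ in vehicle, 7 to 13 and 3 to 5 under erastin, and 1 to 2 rises with erastin under either siRNA. The cause of these shifts was not tested. With the replicate number as a block, 8 members rose and 4 fell in vehicle, 10 and 4 under erastin, and 2 and 1 rose with erastin, so no member count moved, while all genes called for erastin went from 96 to 39 in siNT and from 67 to 34 in siTAZ cells; 3 of 12 arrays correlated best with their own number. Over the settings other than left-out arrays these all-gene counts ran from 15 to 324 and from 34 to 166, and the interaction called 0 to 10 genes and 0 members. WWTR1 stayed at −3.32 to −3.00.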
